A study of Mus musculus with 6 samples.

Results

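The 4 genes Optc, Prelp, Fmod and Chil1 lie near each other on mouse chromosome 1 and encode secreted proteins of the extracellular matrix. They were taken by gene symbol from a table of 1140 chromosome 1 rows, and each symbol matched 1 row. They had been chosen by their FPKM levels in the knock-in and control groups, the comparison described below, so these levels and differences are a description and no test of them is made here.

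The data were RNA profiles of mouse retina at embryonic day E15.5. The knock-in group had the genotype T2Isl1/+, in which 1 copy of the Tbr2 (Eomes) gene carries an Isl1 knock-in and the other copy is the normal one. The control group had the genotype T2fx/+, called wild type by the submitters and written Tbr2-f/+ in the series title. Both groups were C57BL/6, had 3 libraries each, and every library came from a pool of 8 retinas. Isl1 is a LIM-homeodomain protein that controls transcription in developing ganglion cells and other neurons, and expression from the Tbr2 locus places it in the cells that use that locus. The knock-in and the control each had 1 level per gene in the table, so no spread between libraries could be given for any value. Isl1 and Eomes were not analysed here.

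Small leucine-rich proteoglycans are secreted proteins built around a curved stack of leucine-rich repeats, which bind collagen and regulate how fibrils assemble. Opticin, the product of Optc, is found in the vitreous and is made by the non-pigmented ciliary epithelium at the edge of the retina. Prelp anchors basement membranes to the connective tissue beneath them, and fibromodulin, from Fmod, controls collagen fibril thickness in tendon, cartilage and sclera. Chil1 encodes a chitinase-like protein that binds chitin without cutting it and is known from cartilage cells, macrophages and reactive astrocytes.

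All 4 genes fall in a stretch of 293 kb. Optc (row from 133897194 to 133908659, mm10) and Prelp (133910304 to 133921401) are both on the minus strand, in tandem, with 1644 bases between their rows. Fmod (134037515 to 134048277) and Chil1 (134182404 to 134190031) are on the plus strand, 116 kb beyond Prelp and 134 kb beyond Fmod. The Optc row reached 660 bases past the end of the GENCODE M21 gene on its 5′ side. The Fmod and Chil1 rows began 261 and 228 bases inside the GENCODE genes. The antisense gene Gm15851 overlaps both Optc and Prelp, and whether counting used strand is not stated by the submitters' notes, so its reads and theirs cannot be told apart.

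Coding lengths of the 4 genes were alike, and exon numbers were not. In GENCODE the longest complete coding sequence of Optc has 7 coding exons and 381 codons for amino acids, that of Prelp has 2 coding exons and 378, and that of Fmod has 2 coding exons and 376. For Chil1 there were 10 coding exons and 389 residues. A search of the translated sequences for the leucine-rich repeat pattern LxxLxLxxNxL, with x for any residue, found 3 matches each in Prelp and Fmod, 2 in Optc and 0 in Chil1. Among 1197 chromosome 1 genes with a complete coding sequence, 0.668% had at least 2 matches. In global alignments Prelp and Fmod were identical at 42.1% of aligned residues, Optc and Prelp at 34.9%, and Optc and Fmod at 31.6%. Chil1 was identical to the 3 proteoglycans at 19.8% to 21.3% of aligned residues.

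The upstream sequences of Optc and Chil1 are shown because these genes had the largest differences in FPKM between the groups, in opposite directions. Each is the 250 bases before the RefSeq transcription start in build GRCm38.p6 (the mm10 assembly), written 5′ to 3′ on the strand of the gene. Capitals mark TAAT on either strand, the core bound by many homeodomain proteins. The Optc stretch is chr1:133908000-133908249 on the minus strand, and it lies within the part of the Optc row that extends past the GENCODE gene. The Chil1 stretch is chr1:134181906-134182155 on the plus strand.
Optc: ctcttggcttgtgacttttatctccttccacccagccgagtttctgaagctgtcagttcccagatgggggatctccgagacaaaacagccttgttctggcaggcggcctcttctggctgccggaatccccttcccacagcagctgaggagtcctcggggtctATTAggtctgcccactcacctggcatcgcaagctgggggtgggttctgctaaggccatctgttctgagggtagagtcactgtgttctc
Chil1: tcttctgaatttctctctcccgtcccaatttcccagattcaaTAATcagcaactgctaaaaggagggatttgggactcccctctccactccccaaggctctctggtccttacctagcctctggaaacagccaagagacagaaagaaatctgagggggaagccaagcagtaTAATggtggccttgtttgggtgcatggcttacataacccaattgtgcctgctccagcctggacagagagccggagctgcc
Optc holds 1 match and Chil1 holds 2, while the same window of Prelp holds 2 and that of Fmod 1. Of 32851 RefSeq promoters of this length, 54.9% hold at least 1 TAAT and 30.8% at least 2. The TATA-box letters TATAAA were found 0 times in all 4 windows on either strand, and 12.4% of all windows hold them. The GC content of the windows was 56.8% for Optc, 55.6% for Prelp, 51.2% for Fmod and 51.6% for Chil1, and the median over all promoters was 52.4%. These matches are letters in a window and say nothing of binding.

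The comparison set retinas with the Isl1 knock-in at the Tbr2 locus against T2fx/+ control retinas. The groups differ in the state of that Tbr2 copy as well as in Isl1, and these cannot be told apart here. Of the 4 genes, Optc had a higher level in the knock-in and Prelp, Fmod and Chil1 had lower levels. Levels are in FPKM, fragment counts corrected for transcript length and for the number of fragments mapped, a unit that allows comparison between genes of different length. By the authors' deposited table, 0 of the 4 were called changed at a q-value (adjusted p-value) under 0.05, against 1.55% of the 646 tested rows analysed here. These rows cover chromosome 1 in part, so shares and ranks below are among them and not among all genes of the authors' test. At an unadjusted p-value under 0.05 the count was 2, Optc and Chil1, against 3.72% of tested rows. With Benjamini-Hochberg adjustment of the authors' p-values over these rows it was 0, against 1.7%. Since the members were chosen on this comparison, nothing is read from these counts. The authors had tested 3 of the 4, and Fmod was not tested.

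Optc was the most abundant member in both groups. Its level was 5.32 FPKM in T2Isl1 retinas and 3.73 FPKM in T2fx retinas in the authors' deposited table. The difference was 1.59 FPKM, and the level in the knock-in was 1.43-fold that of control (0.51 on the log2 scale). Among the tested rows this log2 difference was the 9th from the highest. Its level exceeded that of 31.6% of tested rows in T2Isl1 retinas and 24.5% in T2fx retinas, so Optc lay in the lower part of the expressed genes. The table's q-value for Optc was 1.00 after rounding.

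Prelp, the neighbour in tandem with Optc, had 0.648 FPKM in T2Isl1 retinas and 0.818 FPKM in T2fx retinas in the authors' deposited table. The log2 difference was -0.34, in the opposite direction from Optc. Prelp stood above 3.25% of tested rows in T2Isl1 retinas and 5.11% in T2fx retinas. Optc had 8.21 times the level of Prelp in T2Isl1 retinas and 4.56 times in T2fx retinas.

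Fmod had the lowest level in T2fx retinas. The authors' deposited table gave 0.210 FPKM in T2Isl1 retinas and 0.346 FPKM in T2fx retinas, a log2 difference of -0.72. The highest level among the 494 rows the authors did not test was 0.516 FPKM, and Fmod lay below it in both groups. The Fmod difference was -0.136 FPKM, the smallest of the 4.

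Chil1 had the largest relative difference. Its level was 0.0679 FPKM in T2Isl1 retinas and 0.915 FPKM in T2fx retinas in the authors' deposited table, 13.5-fold lower in the knock-in (log2 difference -3.75). On the FPKM scale this was a difference of -0.847, smaller in size than that of Optc. In T2fx retinas Chil1 was second to Optc among the 4 genes, and in T2Isl1 retinas it was the lowest of them and of all 646 tested rows. The table's q-value for Chil1 was 0.511. With 1 FPKM added to both groups the log2 difference was -0.84, and with 0.1 FPKM added it was -2.60.

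**Figure D1:**
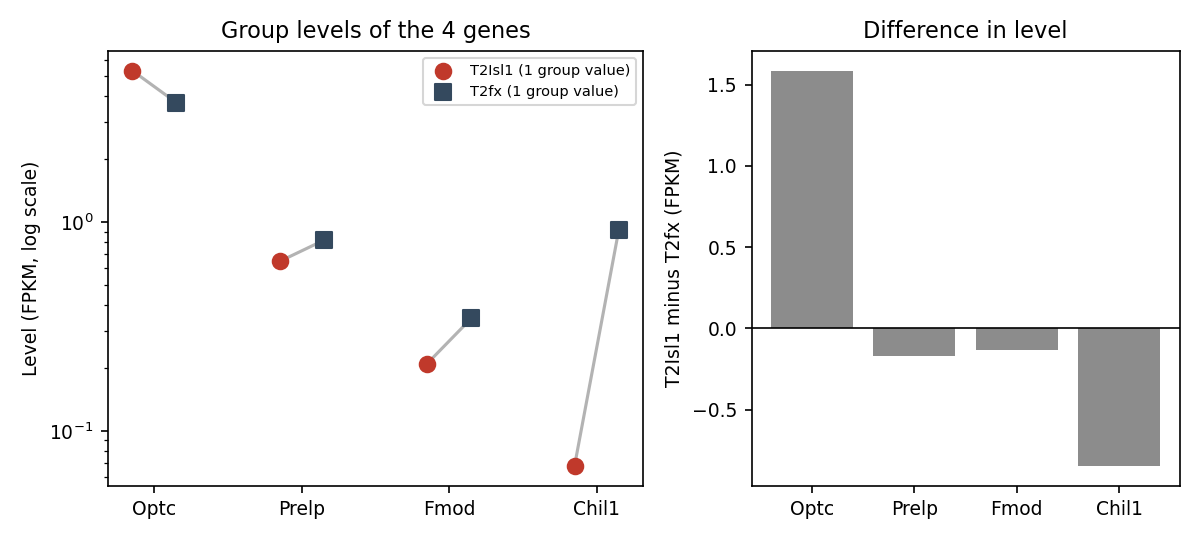
Left, level of each gene in FPKM on a log axis, with the T2Isl1 group value as a circle and the T2fx group value as a square. Right, the T2Isl1 minus T2fx difference in FPKM as bars. Optc stands at 5.32 against 3.73 FPKM, the other 3 genes lie below 1 FPKM in both groups, and Chil1 has the widest gap on the log axis.

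From highest to lowest, the order in T2Isl1 retinas was Optc, Prelp, Fmod and Chil1. In T2fx retinas it was Optc, Chil1, Prelp and Fmod. Whether neighbours in these orders differ beyond the spread of libraries was not tested, since there was 1 value per group. Summed over the 4 genes the level was 6.24 FPKM in T2Isl1 retinas and 5.81 FPKM in T2fx retinas, a log2 difference of 0.10. Optc made up 85.2% of that sum in T2Isl1 retinas and 64.2% in T2fx retinas. Without Optc the sum was 0.925 FPKM in T2Isl1 retinas and 2.08 FPKM in T2fx retinas, a log2 difference of -1.17. The near-equal sum of the 4 genes therefore held a higher Optc and 3 lower genes.

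The level of a gene bears on how far its ratio spreads. Of the 50 tested rows under 1 FPKM in the higher group, which include Prelp and Chil1, 5 differed by at least 2-fold, and the 5th and 95th percentiles of their log2 differences were -2.05 and 0.58. Chil1 was the lowest of these rows, and 0 of them were called. Of the 244 rows from 5 to 20 FPKM, which include Optc, 1 differed by at least 2-fold, and the percentiles were -0.18 and 0.22. Optc at 0.51 lay above that range and Prelp at -0.34 lay inside its own. By its T2fx level of 3.73 FPKM, Optc would fall among the 139 rows from 1 to 5 FPKM, whose percentiles were -0.43 and 0.30. The members were chosen on these values, so nothing is read from where they lie. In the lowest ratios of all tested rows, Chil1 stood at rank 3, after the lens crystallin genes Cryba2 (-4.03) and Cryga (-3.85) and ahead of Cryge (-3.35).

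**Figure D2:**
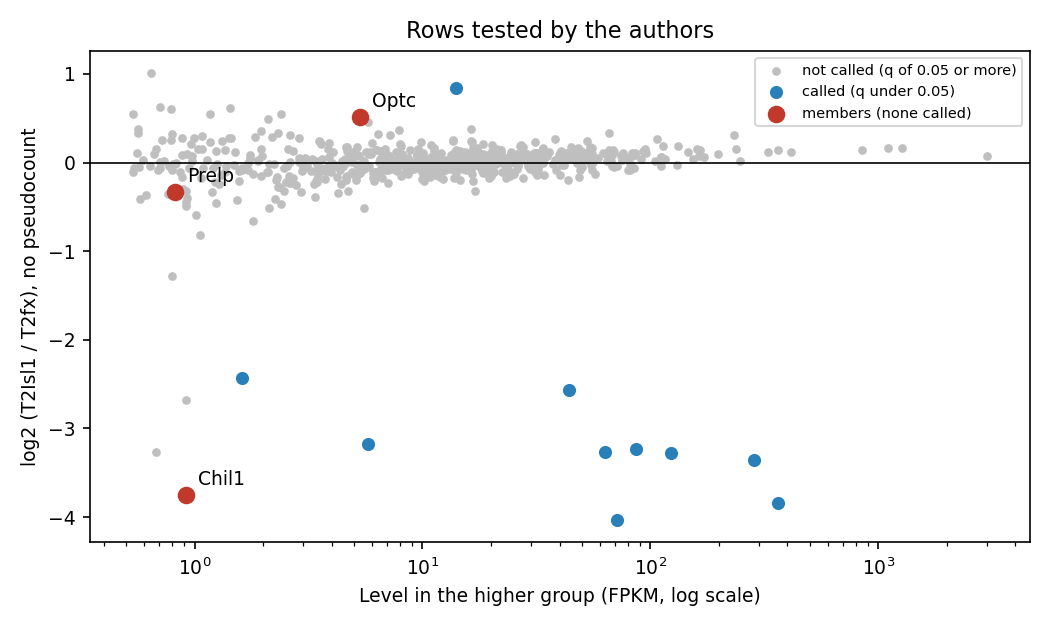
Each point is a row tested by the authors, with its level in the higher group (FPKM, log axis) against the log2 difference of T2Isl1 over T2fx. Chil1 lies at -3.75 beside rows under 1 FPKM, Optc at 0.51 and Prelp at -0.34, and the called rows are drawn in blue.

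By the distance between log2 differences, taken over the 2 group values alone and among 595 other tested rows with at least 1 FPKM, the rows most like Optc were Ly96 (0.49), Sctr (0.55) and an unnamed row (0.55). For Prelp they were Rassf5, Aim2 and Plxna2, at -0.34, -0.33 and -0.35. For Fmod they were Tmbim1 (-0.66), Apoa2 (-0.82) and an unnamed row (-0.59). For Chil1 they were Cryga, Cryba2 and Cryge, which were themselves called and whose levels were 25.3, 4.35 and 27.9 FPKM in T2Isl1 retinas, against 364, 71.3 and 285 FPKM in T2fx retinas. The levels of these crystallins were far above that of Chil1 in both groups.

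Tested genes around the 4 members had close levels in both groups. Within 500 kb of their outer ends there were 21 other rows, of which the authors had tested 14 and called 0, against 1.55% of all tested rows. The log2 differences of these 14 ran from -0.18 to 0.15, with 7 above and 7 below zero and a median of 0.00. The median over all tested rows was 0.01. Snrpe, a core protein of the spliceosome, was the most abundant, with 363 FPKM in T2Isl1 retinas and 330 FPKM in T2fx retinas in the authors' deposited table. Btg2, an antiproliferative gene of neurogenic progenitors that lies between Fmod and Chil1, had 83.4 FPKM in T2Isl1 retinas and 79.5 FPKM in T2fx retinas. Tmem183a had 45.2 FPKM in T2Isl1 retinas and 41.8 FPKM in T2fx retinas. Adipor1, an adiponectin receptor, had 42.8 FPKM in T2Isl1 retinas and 40.6 FPKM in T2fx retinas. Zc3h11a had 22.4 FPKM in T2Isl1 retinas and 24.0 FPKM in T2fx retinas. Kdm5b, a histone H3 demethylase, had 20.7 FPKM in T2Isl1 retinas and 23.3 FPKM in T2fx retinas. For Rabif, Sox13, Cyb5r1 and Klhl12 the log2 differences were 0.14, -0.01, -0.03 and 0.15. The members' log2 differences, from -3.75 to 0.51, were wider than those of the tested genes on either side, as their choice by difference fixed in part. Their levels differed too. The tested neighbours had at least 1.75 FPKM in both groups, while Prelp, Fmod and Chil1 were under 1 FPKM. Untested neighbours at low levels, given below, ran from -1.35 (Myog) to 1.13 (Chit1).

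The stretch holds another gene of the Chil1 family, Chit1, an active chitinase of macrophages. It was not tested and had 0.0241 FPKM in T2Isl1 retinas and 0.0110 FPKM in T2fx retinas in the authors' deposited table. The muscle genes Myog, a myogenic transcription factor, and Mybph, a myosin-binding protein, lie beyond Chil1. Myog had 0.0548 FPKM in T2Isl1 retinas and 0.139 FPKM in T2fx retinas, and Mybph had 0.0148 FPKM in T2Isl1 retinas and 0.0247 FPKM in T2fx retinas. Adora1, an adenosine receptor in the same interval, had 0.225 FPKM in T2Isl1 retinas and 0.265 FPKM in T2fx retinas. Syt2, a synaptic vesicle calcium sensor, had 0.291 FPKM in T2Isl1 retinas and 0.389 FPKM in T2fx retinas. On the log2 scale these untested rows differed by 1.13 for Chit1, -1.35 for Myog, -0.73 for Mybph, -0.23 for Adora1 and -0.42 for Syt2. These 5 rows were not tested by the authors and are named here after their values were seen.

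**Figure D3:**
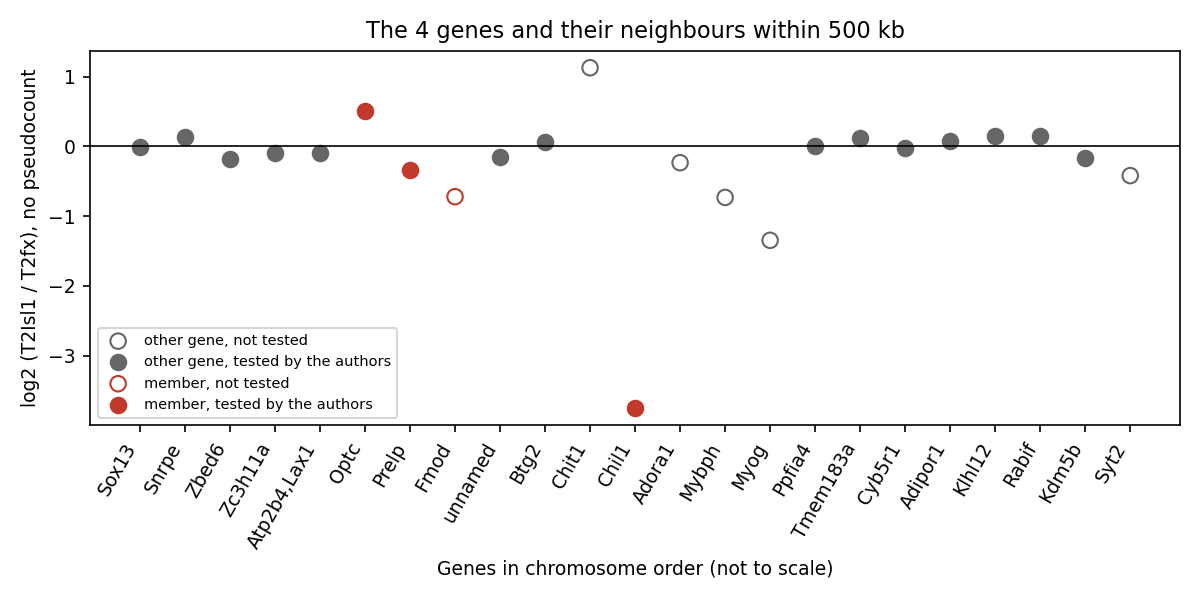
Log2 difference of T2Isl1 over T2fx for the 4 members (red) and the other rows within 500 kb that were above 0 in both groups (grey), in chromosome order and not to scale. Filled points were tested by the authors and open points were not. Tested neighbours lie between -0.18 and 0.15, and Chil1 lies at -3.75.

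Of the family of small leucine-rich proteoglycans, 18 genes were listed, and the 3 with a row were the members Optc, Prelp and Fmod. Of the 10 listed genes of glycosyl hydrolase family 18, those with a row were Chil1 and Chit1. The other genes of both families were not analysed here.

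Among 29 other genes of secreted matrix and matrix-binding proteins, 27 had a row and 14 were tested. Of these 14, 1 was called lower in the knock-in (7.14%, against 1.39% of all tested rows) and 0 were called higher (against 0.155%), and 13 were not called. Because this list was made with earlier results of these data known, nothing is read from that share. The called gene was Col3a1, a fibrillar collagen of connective tissue, with 0.637 FPKM in T2Isl1 retinas and 5.76 FPKM in T2fx retinas in the authors' deposited table. The median log2 difference over the 14 was -0.12, against 0.01 over all tested rows. Col5a2, another fibrillar collagen, had 3.88 FPKM in T2Isl1 retinas and 5.56 FPKM in T2fx retinas (q = 0.0588, the authors' deposited table). Sulf1, a sulfatase that edits heparan sulfate outside the cell, had 1.48 FPKM in T2Isl1 retinas and 2.11 FPKM in T2fx retinas. Lamc1, the gamma chain of most laminins, had 6.02 FPKM in T2Isl1 retinas and 7.06 FPKM in T2fx retinas. Crispld1 had 1.96 FPKM in T2Isl1 retinas and 1.53 FPKM in T2fx retinas, the highest log2 difference of the list at 0.36, below that of Optc.

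Optc was listed also among vitreous and ciliary margin genes, with few of either measured. Of 12 vitreous matrix genes 3 had a row, all tested and 0 called, against 1.55% of all tested rows. Beside Optc and Col5a2 the other was Col9a1, a collagen chain of vitreous and cartilage, with 86.1 FPKM in T2Isl1 retinas and 81.1 FPKM in T2fx retinas (log2 difference 0.09). Of 10 ciliary margin genes the 2 with a row were Optc and Col9a1. Both had higher values in the knock-in, where 45.4% of all tested rows were lower, and neither was called. Optc was chosen on this difference, which leaves Col9a1 alone, so nothing is read from the direction of this list.

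Among markers of tissues around the retina, all tested lens genes and 1 gene each of the mesenchyme and muscle lists were called lower in the knock-in. The lists were chosen with earlier results of these data known. All 9 rows called lower are on the lens, mesenchyme or muscle list, and they make up the whole 1.39% given below. Nothing is therefore read from the shares called. The lens list had 8 of its 23 genes in the table, and all 7 tested were called lower in the knock-in, against 1.39% of all tested rows, with a summed level of 93.6 FPKM in T2Isl1 retinas and 1038 FPKM in T2fx retinas; its member Lgsn was at 0 in both groups. The mesenchyme and connective tissue list had 5 of 18, with lower values in all 5. Of all 1140 rows, 454 were lower, 470 higher and 216 at 0 in both groups. On this list 4 were tested, 1 was called lower (Col3a1), against 1.39% of all tested rows, and 3 were not. The list summed to 15.3 FPKM in T2Isl1 retinas and 24.4 FPKM in T2fx retinas. Within it Twist2, a transcription factor of mesenchyme, had 0.0703 FPKM in T2Isl1 retinas and 0.677 FPKM in T2fx retinas, values near those of Chil1, and Fn1 (fibronectin) had a log2 difference of -0.17. The skeletal muscle list had 11 of 20, with lower values in 10, against 454 lower and 470 higher of all rows. Of the 10 lower genes, 6 were not tested. Of the 11 muscle genes, 4 were tested, 1 was called lower, against 1.39% of all tested rows, and 3 were not called. The list summed to 14.9 FPKM in T2Isl1 retinas and 18.4 FPKM in T2fx retinas. Most of both sums was Mstn, with 13.3 FPKM in T2Isl1 retinas and 14.0 FPKM in T2fx retinas. Its member Chrng was called lower, with 0.300 FPKM in T2Isl1 retinas and 1.62 FPKM in T2fx retinas. Myl1 had 0.328 FPKM in T2Isl1 retinas and 0.798 FPKM in T2fx retinas, Mstn had a log2 difference of -0.08, Tnni1 had 0.143 FPKM in T2Isl1 retinas and 0.917 FPKM in T2fx retinas, and Chrnd was at 0 in both groups. Chil1, Fmod and Prelp were lower in the same comparison, and the part of these tissues in that was not tested. Fewer cells of a type and less RNA per cell cannot be told apart in such pools. How much tissue from around the retina each pool held at collection is unknown.

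Other marker lists lay close between groups or held little. The vascular genes Cd34 and Rgs5, 2 of 9 listed, summed to 14.0 FPKM in T2Isl1 retinas and 14.2 FPKM in T2fx retinas. The macrophage and microglia list had 2 of 12 genes in the table, Ptprc and Chit1, which summed to 0.116 FPKM in T2Isl1 retinas and 0.150 FPKM in T2fx retinas, and 0 were tested. Of 9 pigment epithelium genes 0 were analysed here. Retinal progenitor and neuron genes, 12 of 25 listed, summed to 701 FPKM in T2Isl1 retinas and 676 FPKM in T2fx retinas, with 0 called, against 1.55% of all tested rows, and a median log2 difference of -0.07. Values were lower in the knock-in for 9 of these 12 genes, against 45.4% of all tested rows, while the sum was higher, with Hes6 as its most abundant gene. The smallest p-values on that list were those of Tfap2b, Cntn2 and Lhx9, with log2 differences of -0.32, -0.20 and -0.46, and of Hes6. Hes6, a neurogenic regulator, had 414 FPKM in T2Isl1 retinas and 380 FPKM in T2fx retinas. In T2fx retinas the lens list summed to 1038 FPKM, above the 676 FPKM of the retinal list. In T2Isl1 retinas the lens list summed to 93.6 FPKM, below the 701 FPKM of the retinal list. Whether the pools held retina alone was not tested.

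**Figure D4:**
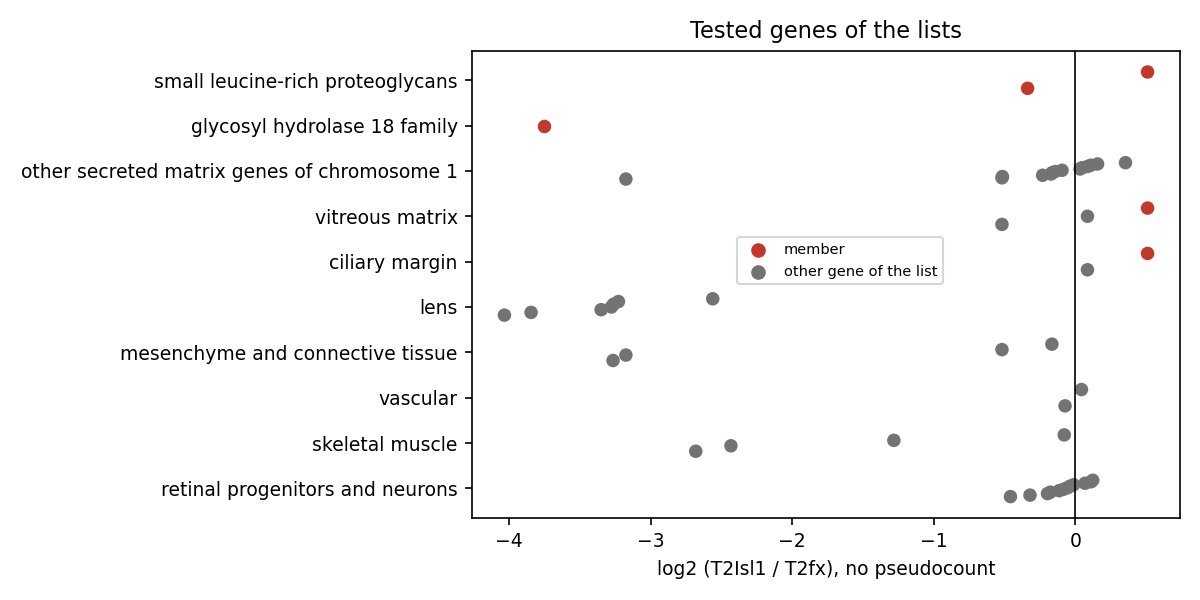
Log2 difference of T2Isl1 over T2fx for every tested gene of 10 lists, 1 point per gene, members in red. Optc is at 0.51, Prelp at -0.34 and Chil1 at -3.75, the 7 lens genes lie between -4.03 and -2.56, and the retinal genes between -0.46 and 0.12.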

How the data were processed

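Total RNA of 6 retina pools was sequenced, and TopHat2 2.1.1, Cufflinks 2.1.1, CASAVA and mm10 are listed, without an order, per the submitters' processing notes. No source used here gives the gene annotation. The deposited values are read as FPKM from those tools and the Cuffdiff layout of the columns, with the 3 libraries of a group combined by the authors into 1 value. The log2 fold change (T2Isl1 over T2fx, no pseudocount), test score, p-value and q-value are the authors', per the file headers. The score was not used further. Library depth is unknown.

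Positions were shifted by 1 to count from 1, and 1 incomplete row was left out. The rows analysed cover chromosome 1 in part, and other rows of the authors' comparison were not analysed here. Calls used a q-value under 0.05 among the 646 of these rows that the authors had tested. No new test was made: the file has 1 value per group, and the members and gene lists were chosen with earlier results of these data known. The labels do not say whether pools shared litters. The genes named were the 4 members, the 10 tested neighbours with the highest T2fx level, called genes of each list and up to 4 more with the smallest p-value, and the 3 rows of nearest log2 difference, with the lens genes given together. Genes named after their values were seen are marked so in the text. Coding sequences, strands and exon counts came from GENCODE M21, promoters from RefSeq (GRCm38.p6), and alignments used Biopython 1.88 with BLOSUM62. Calculations ran in Python 3.11.15 with pandas 2.3.3 and were tested on simulated data. Alternatives covered pseudocounts of 0.1 and 1 FPKM, other call rules, a floor of 1 FPKM and windows of 250 and 1000 kb.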

Additional observations from a re-analysis of the deposited data

How the results depend on the processing

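With 1 value per group, library depth and replicate error are unknown, and no library could be left out. No paired analysis was possible because the columns hold 1 combined value per group and carry no replicate number. Values moving by under 0.1 on the log2 scale, or counts within 1.5 times, were taken as alike, which held for 46 of the alternatives; 11 moved and 11 gave more calls, and 0 reversed a direction. A pseudocount cannot reverse the sign of a single gene, though it could reverse that of a list median. With 0.1 FPKM added the log2 difference was -2.60 for Chil1 and -0.53 for Fmod, and with 1 FPKM it was -0.84 for Chil1, -0.15 for Fmod and -0.14 for Prelp. With 1 FPKM the list medians were -0.84 for the glycosyl hydrolases (Chil1 alone), -0.54 for mesenchyme and -0.59 for muscle. With a floor of 1 FPKM the medians were 0.51 for the small leucine-rich proteoglycans (Optc alone), -0.52 for mesenchyme and -1.26 for muscle, since fewer genes remained. At an unadjusted p-value under 0.05, which 3.72% of tested rows met, 2 of the 4 members passed (Optc and Chil1). The 1 proteoglycan and the 1 ciliary margin gene that passed were again Optc, and the 1 glycosyl hydrolase was again Chil1. The 2 vitreous genes were Optc and Col5a2. The other matrix list had 3 (Col3a1, Col5a2 and Sulf1), mesenchyme 3 (Col3a1, Col5a2 and Twist2) and the retinal list 1 (Tfap2b). Lens (7), muscle (1) and vascular (0) were as before. Since lists share genes and the members were chosen on this comparison, these counts are not separate results. With the p-values adjusted by Benjamini-Hochberg over these tested rows only, which called 1.7%, the counts were 0 members, 2 other matrix, 1 vitreous and 2 mesenchyme genes, with the other lists as at the authors' q-value, Col5a2 being the one added.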

Other observations

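The other secreted matrix genes that the authors did not test also lay mostly below control, and they are given as values without a test. Of these 13 rows, 12 were lower and 1 was higher in T2Isl1 retinas. Over all 494 rows that were not tested, 161 were lower and 117 higher, and the other 216 were at 0 in both groups. Named after their values were seen, the collagen VI chain gene Col6a3 had 0.0664 FPKM in T2Isl1 retinas and 0.444 FPKM in T2fx retinas. Lamb3, which encodes a laminin chain of surface epithelia, had 0.00329 FPKM in T2Isl1 retinas and 0.108 FPKM in T2fx retinas. Dpt, a small matrix protein of skin, had 0.0377 FPKM in T2Isl1 retinas and 0.0617 FPKM in T2fx retinas. All of these levels lie under that of Chil1 in T2fx retinas.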
